A study of Mus musculus with 4 samples.

Results

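A group of 10 genes used as markers of mouse embryonic stem cells beyond the core pluripotency factors was followed on the arrays of this study: Dppa2, Dppa3, Dppa4, Dppa5a, Utf1, Tcl1, Fbxo15, Tdh, Nr0b1 and Nr5a2. Their probe sets were taken by exact gene symbol in the platform annotation, which gave 15 probe sets for 9 of the 10 genes out of 45037 probe sets other than controls. Tdh, which encodes the threonine dehydrogenase that feeds glycine and acetyl-CoA to embryonic stem cells, was unnamed in that annotation and was not analysed here. Nr5a2 had 4 probe sets, Utf1 had 3, Dppa2 had 2 and the other 6 genes had 1 each. All 15 were bright enough to be tested (mean log2 signal above 5.73, or a signal of 53.0).

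The cells were E14Tg2A.4, a feeder-independent subline of the Hprt-deficient male mouse embryonic stem cell line E14Tg2a. Bone morphogenetic protein 2 (BMP-2), at 25 ng/ml, was on the cells of 2 arrays during 1 h, and the other 2 arrays hold RNA of untreated cells. Whether the replicates of a treatment were grown as separate cultures is not given in the sources used here, so a p-value reflects no more than the variation among these 4 samples, possibly a technical one. The arrays of each group are numbered replicate 1 and replicate 2, and values are MAS5 signals on a linear scale.

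Embryonic stem cells express, next to Pou5f1, Sox2 and Nanog, a set of genes that served to define the stem cell state. Many of them, though not all, are silenced on differentiation. DPPA2 and DPPA4 are SAP-domain proteins that bind chromatin as a pair, keep developmental promoters poised and help to switch on genes of the cleavage-stage embryo. DPPA3, also called Stella, shields the maternal genome from DNA demethylation and is known for mosaic expression in stem cell colonies, while DPPA5A is a KH-domain RNA-binding protein. UTF1 is a chromatin-bound protein, TCL1 a coactivator of the kinase AKT, and FBXO15 an F-box protein whose locus served as an early reporter of reprogramming. NR5A2 (LRH-1) is an orphan nuclear receptor that binds AGGTCA elements as a monomer and acts on Pou5f1, and NR0B1 (DAX-1) is a receptor-like partner without a zinc-finger DNA-binding domain that represses NR5A receptors. BMP signals through SMAD1 and SMAD5 and supports self-renewal of these cells together with LIF.

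The bases upstream of the annotated starts of Nr0b1 and of the more upstream start of Nr5a2 are shown because these genes had the largest negative differences among the brightest probe sets of each gene. Of the 10 genes, Nr5a2 (2 starts), Utf1, Tcl1 and Nr0b1 were searched in the RefSeq promoter table (GRCm38.p6). Fbxo15 was left out of that search, and the other genes had no entry. Each sequence is the 250 bases before the start, read 5′ to 3′ on the strand of the gene. The Nr0b1 window is chrX:86191525-86191774 on the plus strand, and the Nr5a2 window is chr1:136960449-136960698 on the minus strand. Capitals mark AGGTCA and TATAAA on either strand.
Nr0b1: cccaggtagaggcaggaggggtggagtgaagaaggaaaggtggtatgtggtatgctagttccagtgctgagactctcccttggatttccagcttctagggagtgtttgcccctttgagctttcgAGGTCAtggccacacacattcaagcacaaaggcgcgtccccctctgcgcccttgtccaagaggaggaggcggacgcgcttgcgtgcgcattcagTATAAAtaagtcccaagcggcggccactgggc
Nr5a2: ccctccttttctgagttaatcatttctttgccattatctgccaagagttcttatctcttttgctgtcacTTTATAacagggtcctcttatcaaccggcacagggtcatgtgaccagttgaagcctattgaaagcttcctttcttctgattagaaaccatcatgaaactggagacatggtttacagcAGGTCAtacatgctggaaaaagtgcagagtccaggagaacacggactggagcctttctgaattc
In the Nr0b1 window AGGTCA began 126 bases and TATAAA 32 bases before the start, and in the Nr5a2 window AGGTCA began 64 bases before the start and TATAAA lay on the opposite strand with its first base in this reading 181 bases before it. Searched on both strands, AGGTCA is found in 14% and TATAAA in 12.4% of the 32851 windows of this length in the table, and these motifs do not overlap each other here. GGCGCC, a GC-rich SMAD element, and ATGCAAAT, the octamer bound by POU5F1, were in none of the 5 windows of these 4 genes, against 9.59% and 1.6% of all windows. Such matches describe letters only.

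Untreated cells gave bright signals for each of the 9 genes. The percentile of the mean untreated log2 signal among all probe sets other than controls was 99.9 for Dppa5a, 98.3 for Dppa2, 98.2 for Fbxo15, 97.9 for Utf1, 97.4 for Dppa4, 95.7 for Nr0b1, 91.9 for Nr5a2, 87.5 for Tcl1 and 86.8 for Dppa3, each on the brightest probe set of the gene. Dppa5a ranked 45 from the brightest of 45037. These are ranks of array brightness and give no order of transcript amounts, since probe sets differ in affinity. The dimmest members were a further probe set of Utf1 (percentile 49.9) and one of Nr5a2 (percentile 42.1).

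**Figure D1:**
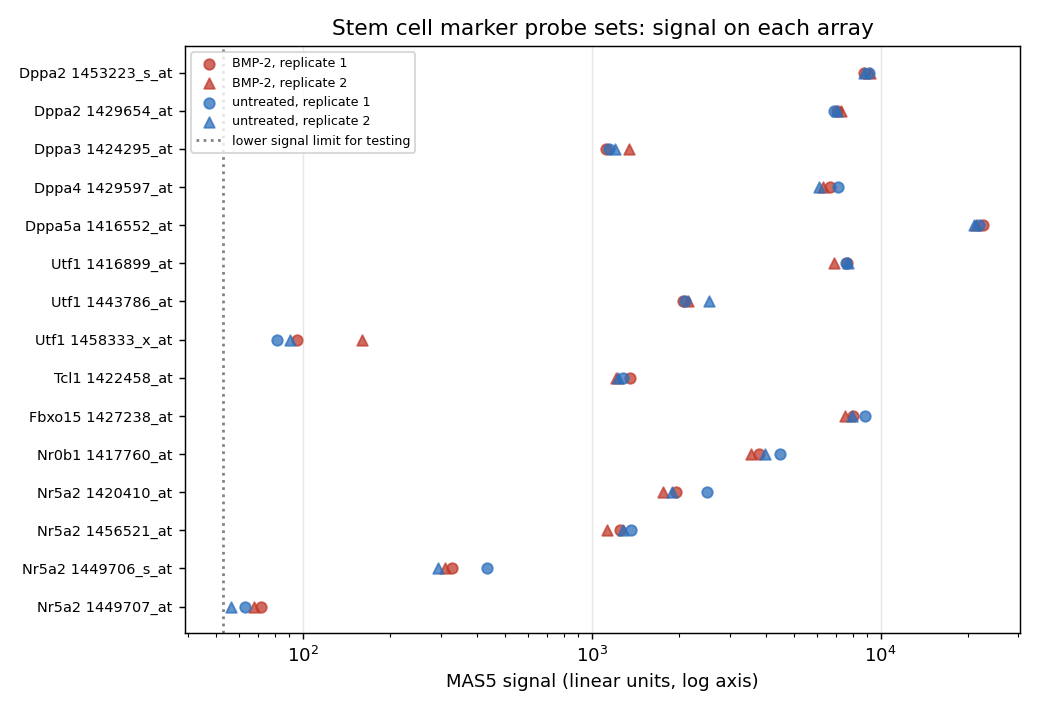
MAS5 signal (horizontal log axis) of the 15 probe sets on each of the 4 arrays, red for BMP-2, blue for untreated, circles for replicate 1 and triangles for replicate 2. Dppa5a lies at 21119 or above on every array, and 2 probe sets, 1 of Utf1 and 1 of Nr5a2, lie near the lower signal limit of 53.0.

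No member passed the test for a difference between treated and untreated cells (0 of 15 probe sets at an adjusted p of 0.05 by limma, lowest adjusted p = 1.00). Over all 27022 tested probe sets 0.0185% passed (5, all higher; 72 higher and 44 lower after centring each array on its median over all probe sets other than controls, 12 and 5 after centring over the tested probe sets, 5 and 1 after quantile normalization). At an unadjusted p under 0.05 there was 1 member, Nr0b1, beside 3.07% of all tested probe sets. The treated arrays did carry a BMP response: Id1, a known early BMP target, read 9738 and 9495 on the treated arrays and 3129 and 3007 on the untreated ones, 1.65 log2 higher (limma adjusted p = 2.0e-05). Among the members 7 differences were above 0 and 8 below, against 52.2% and 47.8% of all tested probe sets, with a median of -0.03 log2 against 0.0077 over all tested probe sets. Across the brightest probe sets of the 9 genes the fold, treated over untreated, ran from 0.851 for Nr5a2 to 1.05 for Dppa3, and the 95% intervals reached from 0.697 (the lower end for Nr5a2) to 1.25 (the upper end for Dppa3). In RNA of whole cultures, fewer cells with a transcript and less of it per cell cannot be told apart.

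**Figure D2:**
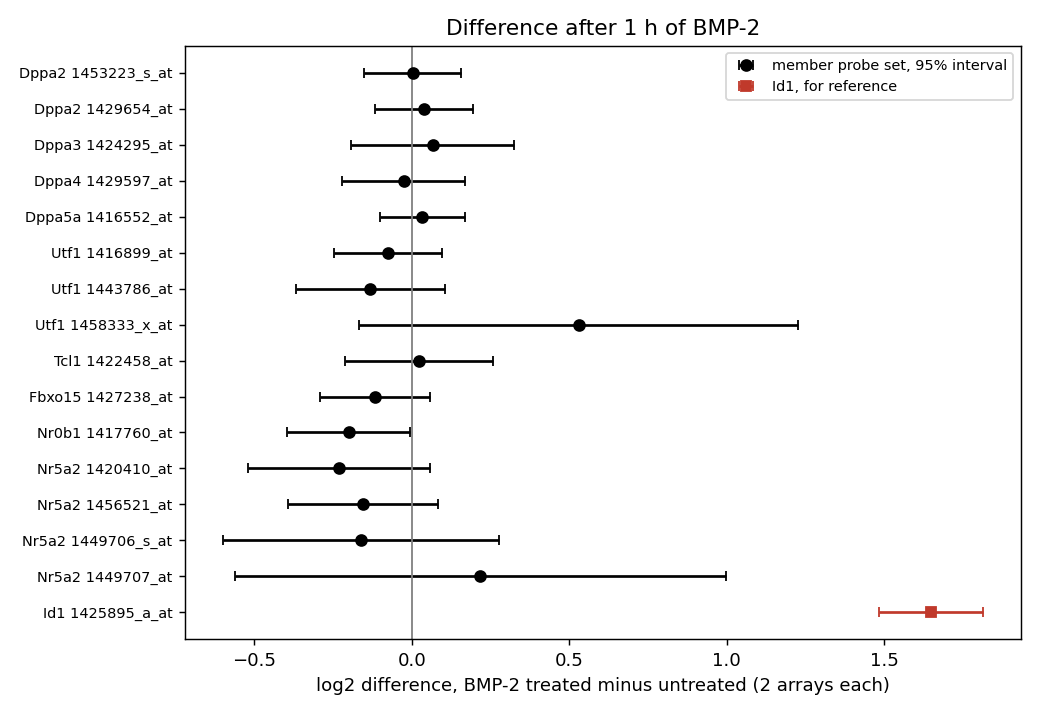
Log2 difference, BMP-2 treated minus untreated, with the 95% interval of the limma fit for the 15 member probe sets (black) and Id1 (red). The members' differences lie between -0.23 and 0.53, and Id1 lies at 1.65.

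The chromatin pair Dppa2 and Dppa4, which neighbour each other in the genome, gave no difference larger than its SE. The brighter Dppa2 probe set (1453223_s_at) read 8765 and 9158 with BMP-2 and 9152 and 8741 without, here and below in the order of replicates 1 and 2. The groups overlapped completely, and the difference was 0.0025 ± 0.069 log2 (SE; interval -0.15 to 0.16). The other Dppa2 probe set (1429654_at) read 7058 and 7283 with BMP-2 and 6903 and 7050 without, so both treated arrays lay above both untreated ones, by 0.039 ± 0.070 log2, less than its SE. Dppa4 (1429597_at) read 6673 and 6313 with BMP-2 and 7145 and 6108 without. Its untreated arrays held both the highest and the lowest of the 4 values, and the difference was -0.03 ± 0.088 log2 (interval -0.22 to 0.17). Without untreated replicate 1 the Dppa4 difference was 0.09 log2, and the sign also turned without treated replicate 2 (0.015). For the brighter Dppa2 probe set the sign turned without untreated replicate 2 or treated replicate 2 (-0.03 each), and after centring over the tested probe sets (-0.03).

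The germline and RNA-binding markers did not separate the groups either. Dppa3 (1424295_at) read 1125 and 1346 with BMP-2 and 1147 and 1204 without. The treated arrays were the lowest and the highest of the 4, with a difference of 0.07 ± 0.12 log2 (interval -0.19 to 0.33), and the sign turned without treated replicate 2 (-0.06). Dppa5a (1416552_at), the brightest member, read 22527 and 21454 with BMP-2 and 21846 and 21119 without. Its arrays differed by at most 0.09 log2, and the difference was 0.03 ± 0.061 log2 (interval -0.10 to 0.17, or -0.0017 without treated replicate 1).

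Utf1 gave one sign on its bright probe sets and the other on its dim one. The brightest (1416899_at) read 7670 and 6873 with BMP-2 and 7602 and 7714 without. Only treated replicate 2 was low, the other 3 arrays lay within a narrow band, and the difference was -0.08 ± 0.077 log2 (interval -0.25 to 0.09, or 0.0023 without treated replicate 2). The second (1443786_at) read 2075 and 2148 with BMP-2 and 2105 and 2542 without. Here untreated replicate 2 alone was high, with a difference of -0.13 ± 0.11 log2 (0.0047 without that array). The third (1458333_x_at) read 95.8 and 160 with BMP-2 and 81.7 and 90.1 without, 0.53 ± 0.31 log2 higher (interval -0.17 to 1.23). The higher treated mean came mostly from treated replicate 2, and without that array the difference was 0.16 log2. The suffix _x_at marks a probe set with probes that may match other sequences.

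Tcl1 (1422458_at) read 1352 and 1216 with BMP-2 and 1286 and 1238 without. Both untreated values lay between the treated ones, and the difference was 0.02 ± 0.11 log2 (interval -0.21 to 0.26, or -0.053 without treated replicate 1, -0.0042 without untreated replicate 2 and -0.0079 after centring over the tested probe sets). Fbxo15 (1427238_at) read 7994 and 7511 with BMP-2 and 8862 and 7968 without. The treated value was the lower one in each pair of arrays with equal replicate number, but treated replicate 1 lay just above untreated replicate 2, and the difference was -0.12 ± 0.078 log2 (interval -0.29 to 0.06, or -0.04 without untreated replicate 1 and -0.19 without untreated replicate 2).

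The nuclear receptors Nr0b1 and Nr5a2 had the most negative values on their brightest probe sets. Nr0b1 (1417760_at) read 3780 and 3562 with BMP-2 and 4473 and 3972 without, with means of 3671 ± 154 (SD, n = 2) and 4223 ± 354 (SD, n = 2). Both treated arrays lay below both untreated ones. The difference was -0.20 ± 0.088 log2 (interval -0.40 to -0.0047), with an adjusted p of 1.00 by limma (0.841 to 1.00 over the alternatives), so it did not pass over all tested probe sets. The log2 differences of the arrays of equal replicate number were -0.24 and -0.16, and the value stayed between -0.29 and -0.11 in the 12 alternatives.

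The 4 probe sets of Nr5a2 did not share one sign. The brightest (1420410_at) read 1956 and 1772 with BMP-2 and 2512 and 1904 without. Untreated replicate 1 was high and the other 3 arrays lay close together, so that the groups overlapped and the difference of -0.23 ± 0.13 log2 (interval -0.52 to 0.06) shrank to -0.03 without that array and grew to -0.43 without untreated replicate 2. The second (1456521_at) read 1251 and 1128 with BMP-2 and 1367 and 1280 without. Here both treated arrays lay below both untreated ones, by -0.16 ± 0.11 log2 (interval -0.39 to 0.08, or -0.08 without treated replicate 2). The third (1449706_s_at) read 329 and 311 with BMP-2 and 435 and 294 without. Untreated replicate 1 was again the highest of the 4 arrays, and the difference of -0.16 ± 0.20 log2 became 0.12 without it. The fourth (1449707_at), near the lower signal limit, read 71.6 and 67.7 with BMP-2 and 63.4 and 56.7 without. Its groups did not overlap, and the difference was 0.22 ± 0.35 log2 (interval -0.56 to 1.00). Untreated replicate 1 was thus the highest array on 3 of the 4 Nr5a2 probe sets, as it was for Dppa4, Fbxo15 and Nr0b1. The share of all tested probe sets with this array highest was not computed, so no trait of these members is read from it.

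**Figure D3:**
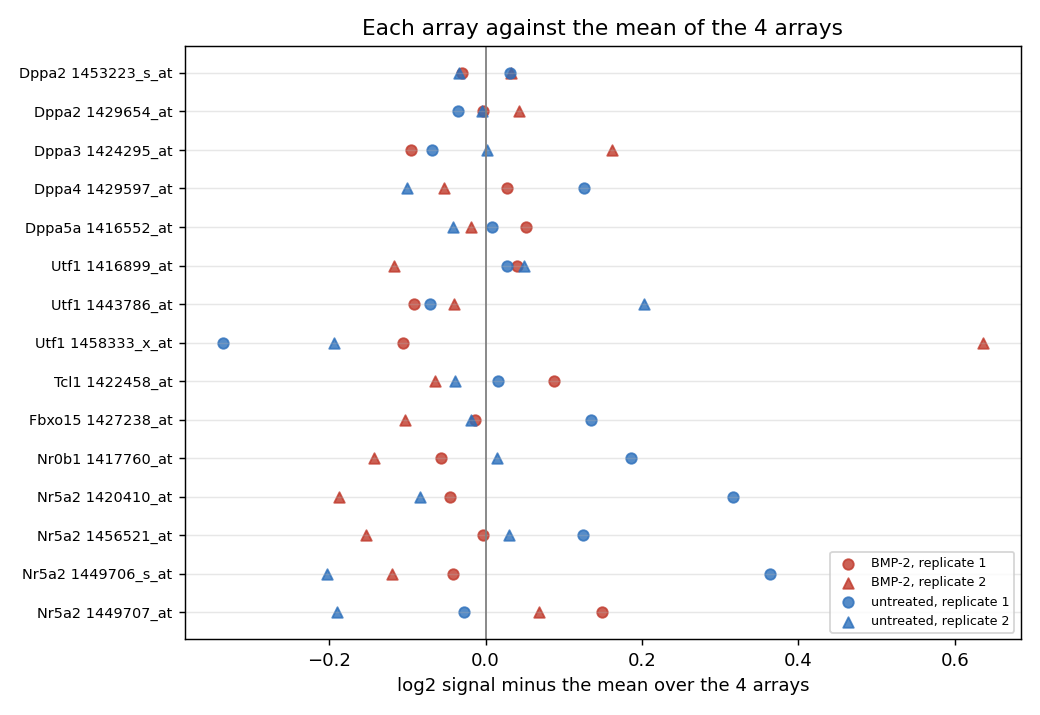
Log2 signal of each array minus the mean of the 4 arrays, for the 15 probe sets, with colours for treatment and shapes for replicate number. Untreated replicate 1 (blue circle) is the highest array for 6 probe sets, with no share over all tested probe sets computed. The single largest departure is treated replicate 2 on the dim Utf1 probe set.

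For 5 of the 15 probe sets the values of the groups did not overlap, against 28.4% of all tested probe sets. Of these, 3 were higher with BMP-2, against 15.9% of all tested, and 2 were lower, against 12.5%, so the shares are near the background. The difference had the same sign in both pairs of equal replicate number for 9 of the 15 probe sets, against 50% of all tested. Some members were ordered by replicate number: both replicate 1 arrays lay above both replicate 2 arrays for 6 probe sets (Dppa4, Dppa5a, Tcl1, Fbxo15 and 2 of Nr5a2) and below them for 2 (Dppa3 and 1 of Utf1). Over all tested probe sets these shares were 15.6% and 28.2%, and over the 8107 in the upper deciles of signal (8 to 10), where 12 of the 15 members lie, they were 31.3% and 14.4%. The median signal over all deposited probe sets was 81.8 and 82.5 on the replicate 1 arrays and 94.9 and 94.6 on the replicate 2 arrays, treated first. The part of the replicate number in the members' values was not tested.

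The spread over the 4 arrays differed widely between members. The SD of the log2 signal ran from 0.032 on one Dppa2 probe set to 0.43 on the dim Utf1 probe set. It was taken over treated and untreated arrays together, so a difference between the groups, as for Nr0b1, adds to it. Because dim probe sets vary more, each SD was set beside the median SD of the tested probe sets in the same decile of signal. It was above that median for 10 of the 15, where by construction as many tested probe sets lie above it as below. The brightest Nr5a2 probe set had 2.50 times the median of its decile (0.22 against 0.088), Nr0b1 had 2.11 times (0.14 against 0.066), and Fbxo15 and Dppa4 each had an SD of 0.099 against 0.066. Both Dppa2 probe sets (0.566 and 0.481 times), Dppa5a (0.604 times), Tcl1 (0.662 times) and the dimmest Nr5a2 probe set (0.419 times) lay below it. This order depends on the scaling. After centring each array on its median over all probe sets other than controls, Tcl1 lay above its decile (1.18 times), Dppa5a near it (0.997 times) and Dppa3 lowest of the members (0.442 times, from 1.13), and after quantile normalization 1 of the Dppa2 probe sets lay above (1.12 times). The brightest Nr5a2 probe set stayed at 1.98 and 2.48 times and Nr0b1 at 1.45 and 2.23 times under these scalings. With 4 arrays these SDs are themselves imprecise, and no test was made of them. Mosaic expression between cells, as known for Dppa3, is not resolved by RNA of whole cultures.

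**Figure D4:**
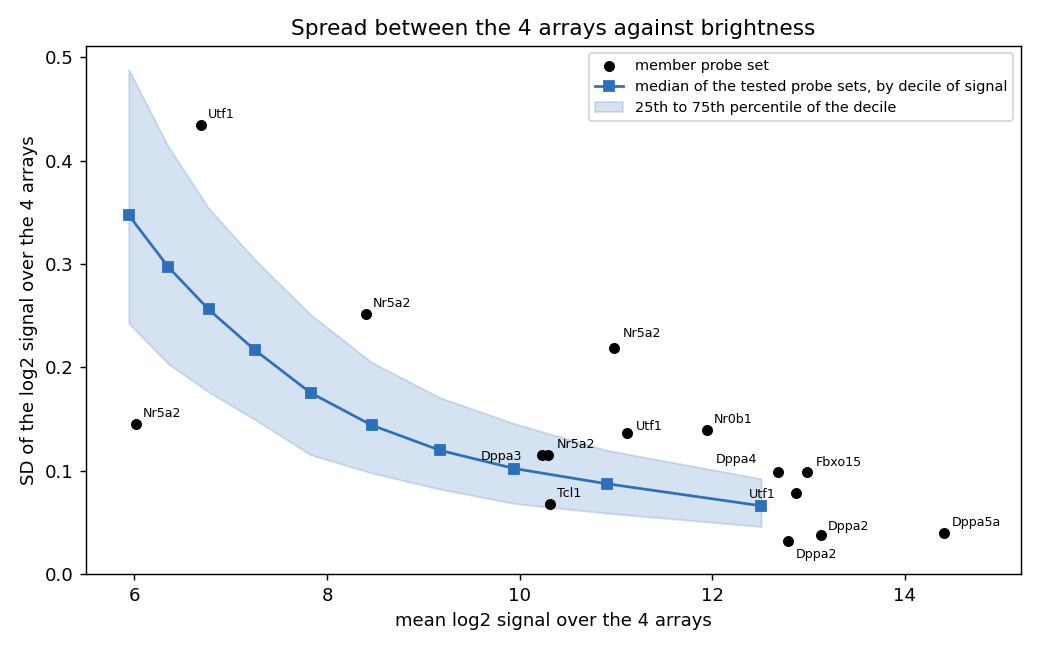
SD of the log2 signal over the 4 arrays (vertical) against the mean log2 signal (horizontal) for the 15 member probe sets, with the median (line) and the 25th to 75th percentile (band) of the tested probe sets in each decile of signal. The brightest Nr5a2 probe set and Nr0b1 are among those above the band, and both Dppa2 probe sets have an SD below the median of their decile, which 1 of them did not after quantile normalization.

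Genes that act with the members gave no call. In 9 lists written from general knowledge, 0 genes passed an adjusted p of 0.05 by limma. At an unadjusted p under 0.05 there was 1 gene, Tbx3 of the core and naive factors (0.36 log2, limma unadjusted p = 0.0105). That count stands beside 3.07% of all tested probe sets. Of the 12 core and naive factors, 6 were higher and 6 lower, with a median of 0.0059 log2, and Sox2, the brightest, differed by 0.015 log2. Of 14 tested other stem cell markers 4 were higher and 10 lower (median -0.04 log2), and Trim28, a co-repressor of retroviral elements, differed by -0.02. Of 10 AKT pathway genes and TCL1 relatives 7 were higher and 3 lower (median 0.14), with Tcl1b3, a TCL1 family gene, at 0.22 (interval -0.08 to 0.52). Of 9 nuclear receptors and cofactors 6 were higher and 3 lower (median 0.06), with Esrrb at -0.01. Of 12 threonine, glycine and purine enzymes near TDH, 6 were higher and 6 lower (median 0.0054), with the purine enzyme Paics at 0.027. Of 7 DNA methylation genes that bear on DPPA3, 4 were higher and 3 lower (median 0.0065), with the methyltransferase Dnmt3b at 0.047. Of 7 ubiquitin ligase genes linked to FBXO15, 3 were higher and 4 lower (median -0.01), with Skp1 at 0.038. Of 10 genes listed as cleavage-stage and linked to DPPA2 and DPPA4, only 5 had a probe set naming them alone, and these were tested. Of the 5, 1 was higher and 4 lower (median -0.11). That median is the value of Eif1a, which was bright in untreated cells (percentile 97.4). Of 5 chromatin genes 4 were higher and 1 lower (median 0.020), with the Polycomb gene Eed at -0.05. Each of these medians stands beside 0.0077 over all tested probe sets, and the direction counts stand beside 52.2% higher and 47.8% lower. Some genes, Esrrb among them, are in more than 1 list, so the lists are not independent.

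The arrays carried the markers of the labelled cell type. All 8 stem cell markers were tested, at untreated percentiles of 94.8 to 99.3, and their summed signal was 72274 and 69066 with BMP-2 and 73051 and 68338 without. Of 8 fibroblast markers 3 were tested, while Col1a1, Col3a1, Dcn, Lum and Postn lay below the lower signal limit. The summed signal of the 3 was 1196 to 1411. These 3 had untreated percentiles of 63.4 to 83.6, and Acta2, the brightest, alone read 797 to 989. Of 6 primitive endoderm markers 5 were tested and all 5 were higher with BMP-2, none past the threshold. Their summed signals were 641 and 748 against 523 and 617. These 5 were dim (untreated percentiles 40.8 to 67.1), and Sox7 stood at 1.11 log2 (limma unadjusted p = 0.00518). Of 4 mesoderm markers 3 were tested and were higher too (465 and 540 against 408 and 421), again none past the threshold. They were dim as well (untreated percentiles 47.7 to 65.7). Of 5 trophectoderm markers 3 were tested, 1 higher and 2 lower (summed signals 1914 and 2183 against 1952 and 1998). Their untreated percentiles were 49.3 to 90.1, and Tfap2c, the brightest, alone read 1692 and 1941 against 1680 and 1707. Of 4 neuroectoderm markers 2 were tested and both were lower (1747 and 1691 against 2111 and 1937), none past the threshold. Neurod1 stood at -0.29 log2 (limma unadjusted p = 0.0191, adjusted p = 1.00). These 2 had untreated percentiles of 74.4 and 89.8, and Neurod1, the brighter, alone read 1361 and 1303 against 1731 and 1532. The part of these signals in the members' values was not tested.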

How the data were processed

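Biotinylated cRNA of 4 samples was prepared for Affymetrix arrays, according to the labels. The authors deposited 1 intensity per probe set and array, on a linear scale. The tool, per the submitters' processing notes, was MAS5 (its version is not given in the sources used here). Their 2%-trimmed mean was 500 on each array, so no further scaling was applied. MAS5 signals of dim probe sets are noisy on a log scale, and detection calls were not used here.

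After 64 control probe sets were left out, log2 signals (no pseudocount) with a mean above the 40th percentile were tested in R 4.3.3 by limma 3.58.1 (linear model, empirical Bayes, variance trend on signal, 2 residual and 7.98 prior degrees of freedom, no replicate block), two-sided, with Benjamini-Hochberg adjustment over all 27022 tested probe sets. The fit was also run on simulated data with independent noise and no array offsets or replicate structure. That run does not cover such effects here. With 2 arrays per group a permutation test cannot reach 0.05, and none was run. Genes named were the members by all their probe sets, Id1, and the brightest gene of each partner list. Listed genes with an unadjusted p under 0.05, fibroblast markers below the signal limit and the brightest fibroblast and trophectoderm markers were named too. A listed gene is represented by its brightest tested probe set. Members and lists were chosen with earlier results of these data known. Symbols come from the platform annotation. No genes were sought for likeness of pattern, since 4 arrays are too few. Same-numbered arrays deviated together (correlation 0.152), but with 2 pairs the samples share only a number. The alternatives were quantile normalization, median centring (over all probe sets other than controls and, added after seeing the data, over the tested ones), a pseudocount of 25.4, 2 filters, no variance trend, a replicate block and leaving out each array.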

Additional observations from a re-analysis of the deposited data

How the results depend on the processing

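No member passed in any of the 12 alternatives (0 of 178 member differences; 165 kept their direction). The count over all tested probe sets was 5, and became 116 after centring each array on its median over all probe sets other than controls, 17 after centring over the tested probe sets (chosen after seeing the data), 8 with the filter at the 60th percentile, 0 without the variance trend (1023 at an unadjusted p under 0.05), 11 with the replicate number as a block, and 15 to 140 without 1 array; the cause was not tested. With the block, 2 members had an unadjusted p under 0.05 and the lowest member adjusted p by limma was 0.841, and the block changed no call among the members. Of 13 changes of sign, on 8 probe sets, 11 arose without 1 array. The others arose after centring over the tested probe sets, with -0.029 log2 for Dppa2 (1453223_s_at) and -0.0079 for Tcl1. Without 1 array the log2 difference ran from -0.031 to 0.036 for Dppa2 (1453223_s_at), -0.063 to 0.19 for Dppa3, -0.14 to 0.088 for Dppa4, -0.0017 to 0.069 for Dppa5a, -0.16 to 0.0023 and -0.27 to 0.0047 for the brighter Utf1 probe sets, -0.053 to 0.10 for Tcl1 and -0.44 to 0.12 for Nr5a2 (1449706_s_at). It kept its sign, from -0.19 to -0.04 for Fbxo15, -0.29 to -0.11 for Nr0b1, 0.017 to 0.062 for the other Dppa2 probe set, 0.16 to 0.90 for the dim Utf1 probe set, and -0.43 to -0.03, -0.23 to -0.08 and 0.14 to 0.30 for the other Nr5a2 probe sets.

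After centring over all probe sets other than controls, both replicate 1 arrays lay above both replicate 2 arrays for 12 of the 15 members and 81.2% of the tested probe sets in the upper deciles, and after quantile normalization for 5 and 25.1%. That centring also moved the SD over the 4 arrays of 7 member probe sets by more than its own size, to 0.12 and 0.10 for Dppa2, 0.21 for Dppa4, 0.16 for Dppa5a, 0.17 for the brightest Utf1 probe set, 0.18 for Tcl1 and 0.20 for Fbxo15, while the median SD of the top decile moved from 0.066 to 0.16. Signal over background limits the dim Utf1 and Nr5a2 probe sets, and the number of arrays limits all values.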
